A study of Homo sapiens with 4 samples.

Results

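The comparison described here is that of U87 cells kept in 1 µM crizotinib for 21 days with U87 cells kept for 21 days without it, 2 of the 4 arrays of the study with 1 array a side. U87 is an established human glioblastoma line. Crizotinib inhibits MET, ALK and ROS1, which are receptor tyrosine kinases. All cultures grew in DMEM with 10% fetal bovine serum, and the other 2 arrays are a drug-free vehicle culture and a culture in 2 µM crizotinib, both of 24 hours. The labels call the 21-day arrays crizotinib-resistant and crizotinib-sensitive, but both arms carry a single culture name in the treatment protocol. By the design text the resistant array was taken for the drug culture and the sensitive array for the control without drug, and the sign of every 21-day difference rests on this. The labels do not say whether the resistant culture was cloned or how many cultures were pooled. Total RNA of the 4 cultures was prepared together with the same kit, labelled with biotin and measured on whole-transcript arrays. Of 23786 features in the table, the 22458 with a gene symbol were compared. With no replicate, no test was possible, and every difference below compares these arrays and has no replicate check.

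Crizotinib blocks the signals of growth factor receptors, which in dividing cells feed the transcription programme of the cell cycle. That programme works in waves: E2F factors switch on replication and histone genes for S phase, and the FOXM1 and MYBL2 programme then switches on the kinases, motors and kinetochore proteins of mitosis. Cells that stop dividing for long can secrete interleukins, chemokines and matrix proteases, a set of factors under NF-kB and AP-1 control that reshapes the surrounding matrix and calls in immune cells.

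Levels are log2 values, so a difference of 1 is 2-fold. A gene was counted as higher or lower where the crizotinib array differed from the 21-day control by at least 2-fold and the higher of the pair reached 4.96, which is the median over all values in the table. Of 11880 features at that level, 473 were higher (3.98%) and 488 were lower (4.11%), and 77 and 111 of them were at least 4-fold apart. The shares of 3.98% and 4.11% are the background for every list and family count below. Members under that level cannot be counted as higher or lower. Genes that reach it in 1 array of the pair alone are kept. By construction this raises the share past 2-fold among members at the filter. The median difference over all features was 0.01. The 24-hour vehicle array served as a further drug-free level. The crizotinib array was at least 2-fold above both drug-free arrays for 318 features (2.71% of 11726) and at least 2-fold below both for 362 (3.09%). The comparisons with the control and with the vehicle share the crizotinib array. The drug-free arrays themselves were at least 2-fold apart for 195 features higher (1.65% of 11824) and 157 lower (1.33%) in the 21-day control. Those counts hold time in culture, passage and array differences together, and give the size of difference found without drug. Where 4 levels follow a gene below, they are those of the 24-hour vehicle, the 24-hour crizotinib, the 21-day control and the 21-day crizotinib array, in that order. Where a gene is given by its difference, brackets hold its level in the vehicle and in the 21-day crizotinib array. Past 2-fold always includes the level filter, and some members that miss only that filter are named.

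**Figure D1:**
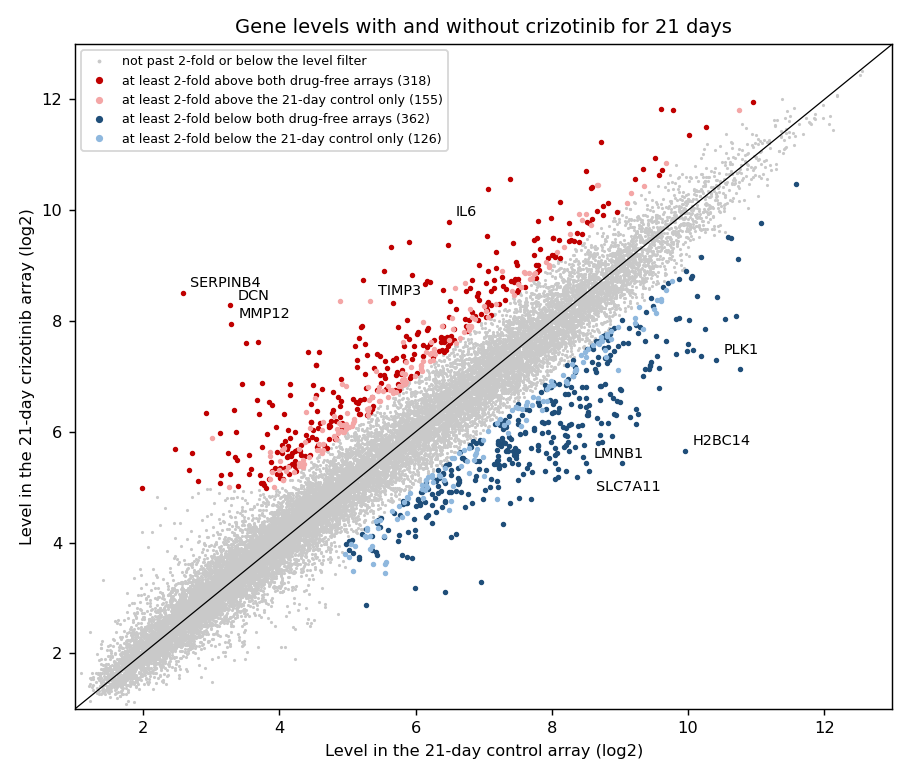
Level (log2) of every feature with a symbol in the 21-day control array (horizontal) and the 21-day crizotinib array (vertical), with the line of equal levels. Dark points are the 318 features at least 2-fold above and the 362 at least 2-fold below both drug-free arrays, and pale points are those past 2-fold against the 21-day control only. SERPINB4, DCN and MMP12 stand far above the line, and H2BC14, PLK1, LMNB1 and SLC7A11 far below it.

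Cell division genes lay among the lowest and secreted factors among the highest, and promoters of members of each are shown because the factors named above are known for short motifs there. The sequences are the 150 bases before the gene start, from RefSeq on GRCh38.p14, on the gene's strand. Capitals mark the cell cycle homology element TTTGAA, a docking site of the FOXM1 and MYBL2 programme, and the CCAAT box of NF-Y in 3 of the 4 lowest genes of the mitotic kinase and cyclin list. These are PLK1 (chr16:23678739-23678888, plus strand), CCNA2 (chr4:121823884-121824033, minus strand) and CDC20 (chr1:43358831-43358980, plus strand).
PLK1: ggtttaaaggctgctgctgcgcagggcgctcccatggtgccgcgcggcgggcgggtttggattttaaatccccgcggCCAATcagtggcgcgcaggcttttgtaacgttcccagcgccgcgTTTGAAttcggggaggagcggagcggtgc
CCNA2: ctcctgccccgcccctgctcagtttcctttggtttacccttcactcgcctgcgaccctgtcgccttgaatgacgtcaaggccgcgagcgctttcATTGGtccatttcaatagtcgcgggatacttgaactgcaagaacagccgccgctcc
CDC20: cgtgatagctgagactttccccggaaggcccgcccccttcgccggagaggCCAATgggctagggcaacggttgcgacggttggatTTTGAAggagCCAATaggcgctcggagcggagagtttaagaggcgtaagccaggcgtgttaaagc
All 3 hold a CCAAT box on 1 of the strands, and PLK1 and CDC20 hold TTTGAA. In IL6 (chr7:22727050-22727199, plus strand), CCL20 (chr2:227813692-227813841, plus strand) and CXCL5 (chr4:73998678-73998827, minus strand), the 3 highest with a promoter in the table among chemokines and interleukins outside the interleukin-1 family, capitals mark the NF-kB motif GGNNTTTCC on either strand.
IL6: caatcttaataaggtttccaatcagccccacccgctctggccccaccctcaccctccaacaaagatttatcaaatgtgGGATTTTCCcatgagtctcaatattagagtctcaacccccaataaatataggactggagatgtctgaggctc
CCL20: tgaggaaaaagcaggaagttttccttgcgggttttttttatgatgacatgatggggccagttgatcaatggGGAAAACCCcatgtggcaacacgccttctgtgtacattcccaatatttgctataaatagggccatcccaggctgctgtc
CXCL5: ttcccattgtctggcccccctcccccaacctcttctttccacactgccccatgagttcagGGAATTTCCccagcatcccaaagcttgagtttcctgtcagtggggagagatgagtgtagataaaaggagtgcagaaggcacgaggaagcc
The H2B histone genes H2BC14 (chr6:27814872-27815021, plus strand) and H2BC21 (chr1:149886683-149886832, minus strand), which differed in opposite directions, both hold the octamer ATTTGCAT and CCAAT boxes, in capitals.
H2BC14: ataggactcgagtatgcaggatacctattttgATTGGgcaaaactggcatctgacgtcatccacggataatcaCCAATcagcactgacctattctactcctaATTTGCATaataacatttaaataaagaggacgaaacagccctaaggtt
H2BC21: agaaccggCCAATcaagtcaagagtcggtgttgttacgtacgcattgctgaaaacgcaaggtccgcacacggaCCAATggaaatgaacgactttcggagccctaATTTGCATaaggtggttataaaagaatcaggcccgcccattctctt
Both strands were searched over 300 bases, 250 before to 50 after the start, and no matches overlapped in the windows printed. TTTGAA was in 15.4% of 27305 promoters and in 25 of the 38 promoters found for the 49 genes of the mitotic and spindle lists (65.8%). The E2F motif GGCGGGAA was in 3.18% of all promoters and in 14 of 41 of the replication and recombination lists (34.1%). GGNNTTTCC was in 6.26% of all promoters, in 10.1% of those of all higher genes and in 8.12% of those of all lower genes. It was in 8 of the 18 found for the 21 chemokine and interleukin genes at least 2-fold higher (44.4%). Of those not past 2-fold 6 of 49 held it (12.2%). Most of these were under the level filter: 24 of 28 chemokines, 9 of 13 interleukin-1 family genes and 24 of 26 other interleukins. The 2 shares thus mostly set genes at the filter beside genes under it. CCAAT was in 35.7% and ATTTGCAT in 1.80% of all promoters, and the octamer was in 8 of the 23 promoters of histone genes that were lower. A match is a description of the letters and not of binding.

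Mitotic genes were lower in the crizotinib array as a block. All 27 measured genes of anaphase, cytokinesis and the spindle and all 22 mitotic kinase, cyclin and checkpoint genes were at least 2-fold lower than in the 21-day control, and 27 and 21 of them were also at least 2-fold below the vehicle. The background of 4.11% lower is the share among all features at the level filter. The median differences were -2.38 and -2.21 against the control, and -2.33 and -2.25 against the vehicle. PLK1, the kinase that drives mitotic entry and spindle assembly, had levels of 10.10, 9.01, 10.41 and 7.30, a difference of -3.11. FOXM1, the transcription factor of the programme, had 9.68, 9.12, 9.83 and 7.40. Its partner MYBL2 had 7.25, 5.81, 8.05 and 5.44. For all 3 the drug-free arrays were close to each other or the control was the higher, and the 24-hour crizotinib array stood between them and the 21-day crizotinib array. WEE1, a kinase that holds CDK1 back, was lower by -1.66 (7.85 and 6.44), and so was CDC25C, the phosphatase that releases it, by -1.69 (6.14 and 4.74). Smallest in these lists was the difference of -1.08 of PKMYT1, another kinase that holds CDK1 back, whose levels were 5.72, 5.06, 6.43 and 5.35, so its crizotinib level lay close to that of the vehicle. RNA came from whole cultures, where fewer dividing cells and less RNA per cell cannot be told apart.

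Within protein families the division members stood apart from the rest. Kinesins are motors that walk on microtubules. Of 39 measured, 14 were lower and 0 higher, while the median of the family was 0.02 and the other 25 lay between -0.34 and 0.66. The lower members are mostly motors of the spindle: KIF11, which pushes the spindle poles apart, had 9.23, 8.39, 9.24 and 6.42, and KIF15, which can share that work, 7.45, 6.96, 7.52 and 4.80. KIF2C, which takes microtubules apart at kinetochores, had 8.54, 7.37, 8.82 and 6.17. KIF20A and KIF23, motors of the midzone and cytokinesis, were lower by -2.56 (8.63 and 6.16) and -2.52 (9.72 and 7.46). KIF21B, which is known from neurons, was the lone lower kinesin whose crizotinib level was not 2-fold below the vehicle: its levels were 4.99, 4.44, 6.15 and 5.05. KIF4A and KIF4B share most of their sequence, so their separate differences of -1.79 (8.19 and 6.60) and -1.95 (6.87 and 5.15) are uncertain. The same holds for the RhoGAPs ARHGAP11A at -2.04 (9.57 and 7.63) and ARHGAP11B at -2.43 (8.58 and 5.77).

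Part of the centromere and chromosome structure genes were lower. Of 19 centromere proteins, 11 were lower, all 11 also against the vehicle, with a median of -1.09. CENPE, a kinetochore motor, had 8.55, 8.32, 8.34 and 5.72, and CENPA, the histone variant that marks centromeres, 7.94, 7.08, 7.47 and 5.66. The outer kinetochore subunits SPC25 and NUF2, partners of NDC80, were lower by -3.33 (6.59 and 3.10) and -2.90 (7.76 and 4.79). Of 24 condensin, cohesin and SMC genes, 9 were lower and 8 of them were below both drug-free arrays, the exception being NCAPD3 (7.35 and 6.84). These were the condensin subunits NCAPH, NCAPG, NCAPD2, NCAPG2, NCAPD3 and SMC4, at -1.18 to -2.45, with vehicle levels of 7.35 to 10.05 and crizotinib levels of 5.62 to 8.04. The cohesin regulators CDCA5 and ESCO2 were at -2.07 (7.83 and 6.09) and -1.80 (9.76 and 8.06) and the cohesin core subunit SMC1A at -1.02 (8.87 and 7.75). NCAPH levels were 8.44, 7.29, 8.07 and 5.62. Among enzymes that tag mitotic proteins for destruction, UBE2C, which feeds the anaphase-promoting complex, had 7.79, 6.35, 7.79 and 5.75. FBXO5, an inhibitor of that complex, had 8.35, 7.07, 8.71 and 6.83 and was the 1 member of 59 F-box proteins past 2-fold, while FBXO43 at 4.16, 3.51, 4.21 and 2.90 missed only the level filter.

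Most genes of replication and recombination were lower, with smaller medians. Of 30 licensing and fork genes 23 were lower, with a median of -1.38, and 17 were below both drug-free arrays. All 14 MCM and GINS family members were below 0 and 10 were at least 2-fold lower, 7 of them also against the vehicle. GINS2, a subunit of the replicative helicase, had 7.29, 5.17, 7.70 and 5.70, so the 24-hour drug array was the lowest of the 4. MCM6, of the helicase ring, had 8.16, 6.97, 8.79 and 7.35, and the licensing factor CDT1 had 7.13, 5.85, 7.63 and 6.22. Both were again lowest in the 24-hour drug array, and their vehicle level lay under the 21-day control. In homologous recombination 14 of 15 genes were lower, all 14 also against the vehicle, with a median of -1.69. EXO1, a nuclease that resects broken ends, had 7.40, 5.59, 7.50 and 5.12, and the helicase BLM 7.15, 6.39, 7.19 and 5.11. Of 13 Fanconi anaemia genes, which unlock crosslinked DNA, 7 were lower, among them BRIP1 at -2.33 (7.45 and 5.24), FANCM at -1.64 (5.27 and 3.78) and FANCG at -1.40 (6.80 and 5.80), and the other 6 lay between -0.77 and -0.30. Of 12 deoxynucleotide synthesis genes 6 were lower and 1 was higher: RRM2, the S phase subunit of ribonucleotide reductase, had 10.42, 8.93, 10.73 and 9.12, while RRM2B, its p53-induced counterpart, had 7.36, 7.72, 7.50 and 8.68. Of the E2F factors, E2F8, E2F2 and E2F1 were lower by -2.24 (7.84 and 5.95), -1.28 (6.01 and 5.38) and -1.27 (7.52 and 6.40), and E2F2 was not 2-fold below the vehicle. RBL1, the RB relative p107, was lower by -1.47 (9.11 and 7.78), and the CDK inhibitor CDKN1A had 7.03, 6.94, 6.87 and 7.79, short of 2-fold.

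Histone genes held the lowest value of the comparison and several high ones. Of 55 measured replication-dependent histone genes 26 were lower and 3 were higher, with 24 and 3 of them also 2-fold from the vehicle, and 18 were below the level filter. H2BC14 had 10.14, 8.05, 9.96 and 5.66, a difference of -4.30, and H3C2 had 6.95, 5.00, 6.96 and 3.29. The linker histone H1-5 had 9.34, 7.14, 9.03 and 5.44. In all 3 the drug-free arrays were the highest, less than 2-fold apart, and the 24-hour drug array lay between them and the 21-day drug array. H2BC21 had 5.80, 5.58, 5.16 and 7.68, H2BC8 had 4.47, 4.38, 4.07 and 6.32, and H2BC5 had 4.09, 4.97, 4.38 and 5.57. The members of each histone class are near-identical in their coding sequence, so the split between single genes is uncertain. The replacement histones H2AX and H2AZ1, made outside S phase as well, were lower by -1.37 (7.25 and 6.56) and -1.13 (10.84 and 9.49), and H2AX was not 2-fold below the vehicle.

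The nuclear envelope showed the same direction. All 11 lamin, emerin and LBR family genes were below 0 and 3 were at least 2-fold lower: LMNB1, the B-type lamin, had 8.46, 6.84, 8.51 and 5.43, TMPO, a lamina-associated protein, 8.04, 7.04, 8.17 and 5.73, and the lamin B receptor LBR 7.78, 7.12, 7.74 and 6.04. LMNA, the A-type lamin, was named after its values were seen: it had 9.21, 9.17, 9.23 and 8.72, a difference of -0.51. Of 22 nucleoporins 21 were below 0 with a median of -0.65. NUP85 (7.26 and 6.14), NUP107 (8.17 and 7.64), NUP37 (7.72 and 7.23) and NUP160 (8.37 and 7.44) were past 2-fold at -1.18 to -1.04, and NUP85 alone was also 2-fold below the vehicle.

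**Figure D2:**
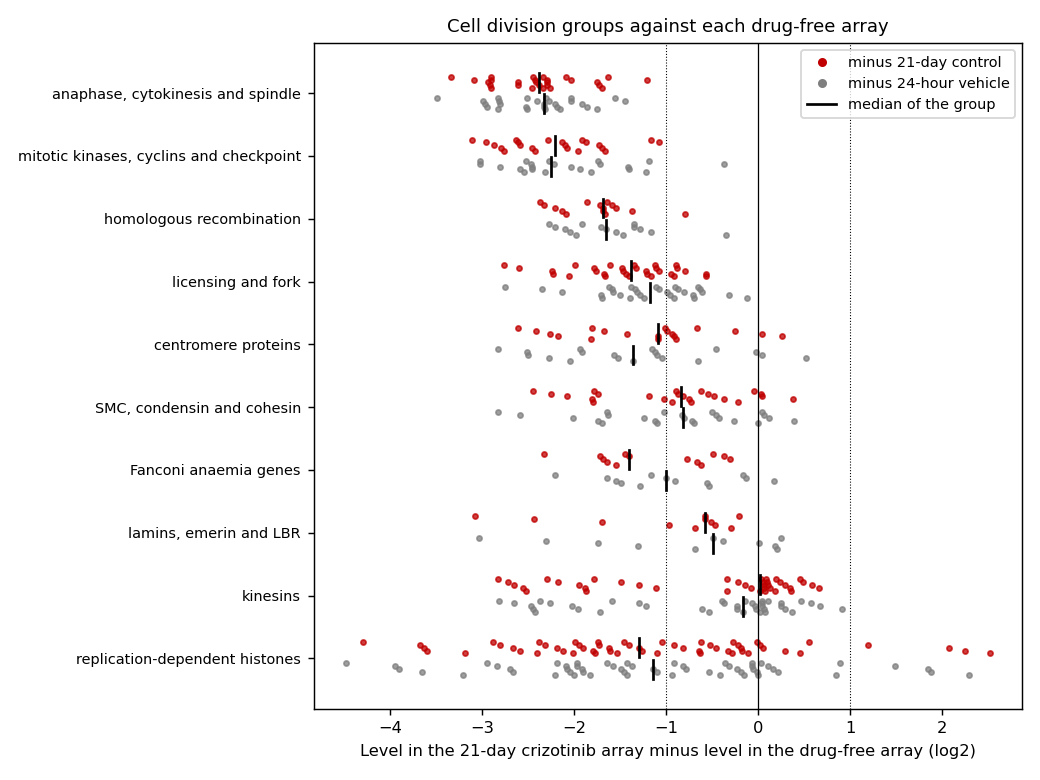
Level in the 21-day crizotinib array minus that in the 21-day control (red) and in the 24-hour vehicle (grey), in log2 units, for each member of 10 division groups, with the group median as a black bar and dotted lines at 2-fold. All spindle members lie left of -1 against both arrays, whereas the kinesins and histones spread from low values to 0 and above.

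Several ligands of the interleukin-1 family were higher in the crizotinib array. Of 20 measured ligands, antagonists and receptors 11 passed the level filter, and 7 were higher and 0 lower, with a family median of 0.22. Among all features at that filter 3.98% were higher. Within the 21-day pair IL33 and IL1RN reached it in the crizotinib array alone. Of the 7 higher genes 6 were above both drug-free arrays. The agonists IL1B and IL1A are alarm cytokines that switch on NF-kB. IL1B had 7.37, 6.67, 9.61 and 11.83, and IL1A 4.45, 4.15, 5.71 and 7.33. For both, the 21-day control was already above the vehicle. IL33, a nuclear alarmin, had 2.72, 2.58, 3.13 and 5.98, with all 3 other arrays under the level filter. Among the 7 were antagonists of the family. IL1RN, which blocks the interleukin-1 receptor, had 4.26, 5.77, 4.42 and 7.44, and IL36RN, which blocks the interleukin-36 receptor, had 4.64, 5.83, 5.54 and 8.90. IL36B, an agonist of that receptor, had 8.34, 9.53, 8.72 and 11.23. The 24-hour drug array was above both drug-free arrays for these 3 and below them for IL1A and IL1B. IL1F10, or interleukin-38, was higher by 1.33 (4.66 and 5.32) and short of 2-fold against the vehicle. Other antagonists and decoys did not pass: IL18BP, IL1R2, IL37 and SIGIRR lay between -0.34 and 0.19. The interleukin-33 receptor IL1RL1, named like IL1R2 and IL37 after its values were seen, at 2.74, 2.48, 2.51 and 3.62, missed only the level filter. Outside the family IL6, the acute phase cytokine, had 5.68, 5.67, 6.48 and 9.79, and its relatives IL11 and LIF were higher by 1.57 (6.53 and 8.06) and 2.02, with LIF at 7.20, 6.75, 7.79 and 9.81.

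Of 38 chemokines, 14 passed the level filter and 10 were at least 2-fold higher, 9 of them above both drug-free arrays. Within the 21-day pair CCL20 and CXCL14 reached that filter in the crizotinib array alone. CCL2, which draws monocytes, had 6.76, 6.34, 5.94 and 8.83, CCL5, which draws T cells, 5.63, 5.87, 5.66 and 8.32, and CCL20, a ligand of CCR6, 3.83, 3.64, 3.85 and 6.53. In these 3 the drug-free arrays were less than 2-fold apart and both were below the crizotinib array. Neutrophil chemokines followed another order. CXCL8 had 6.75, 6.62, 10.01 and 11.36, and CXCL5 had 4.65, 4.66, 6.16 and 8.72, so the 21-day control was above the vehicle by 3.26 and 1.51. CXCL1, CXCL2 and CXCL3 were higher by 1.78 (3.14 and 7.04), 1.44 (5.33 and 7.41) and 2.32 (3.31 and 7.58), but they are close copies and their split is uncertain. CXCL14 was the 1 higher chemokine short of 2-fold against the vehicle, with 5.61, 5.87, 4.52 and 6.60. Of the 20 chemokine receptors only 4 passed the level filter, and 0 were past 2-fold. Of 12 NF-kB and IkB proteins only TNFAIP3, a brake on the pathway, was past 2-fold, with 6.37, 6.48, 8.13 and 9.14, and the family median was 0.22 against the control and 0.72 against the vehicle. PTGS2 and PTGES, which make prostaglandin E2 in turn, were both higher: PTGS2 had 5.28, 5.20, 5.90 and 9.43, and PTGES 7.54, 8.43, 7.81 and 8.93. C3, the central complement protein, had 8.06, 8.72, 8.50 and 10.71 and was the lone one of 27 complement genes past 2-fold.

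Some matrix metalloproteases, cathepsins and protease inhibitors were higher, while the ADAM and ADAMTS proteases gave 1 higher and 2 lower of 42, with a median of 0.06. The lower ones, the sheddase ADAM19 and ADAM22, a synaptic protein without protease activity, were at -1.02 (6.68 and 6.23) and -1.01 (5.46 and 4.90), and neither was 2-fold below the vehicle. Of 22 matrix metalloproteases 11 passed the level filter and 6 were higher, all 6 above both drug-free arrays. MMP12, an elastase, had 3.48, 3.71, 3.29 and 7.95, and MMP7, matrilysin, 3.00, 3.48, 3.68 and 7.62. Both were under the level filter in the other 3 arrays. MMP3, stromelysin, had 9.38, 9.15, 9.77 and 11.81, and MMP19 had 6.20, 6.40, 6.19 and 7.88. MMP1, a collagenase, had 4.21, 3.69, 9.23 and 10.57, so the gap of 5.02 between the drug-free arrays was wider than its difference of 1.34 in the 21-day pair. Of 15 cathepsins, the acid proteases of lysosomes, CTSO, CTSF (4.89 and 7.40), CTSK and CTSS (7.33 and 9.19) were higher by 2.14, 1.97, 1.52 and 1.45, all 4 above both drug-free arrays. CTSK had 8.36, 9.71, 8.25 and 9.77 and CTSO 6.32, 7.88, 5.88 and 8.01, so both were nearly as high after 24 hours in the drug. The abundant cathepsins CTSB and CTSL, named after their values were seen, differed by 0.23 (11.33 and 11.66) and 0.33 (9.31 and 9.97).

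Among 31 serpins, which trap proteases, 10 passed the level filter and 4 were higher. SERPINB4, an inhibitor of chymotrypsin-like proteases and cathepsin G, held the highest difference of all, with 2.03, 2.40, 2.58 and 8.51. SERPINB3, its near-identical neighbour, had 1.95, 1.83, 1.75 and 2.17, so the split between the 2 copies is uncertain. SERPINB10 had 2.82, 2.52, 2.47 and 5.69, and SERPIND1, heparin cofactor II, had 6.55, 5.11, 6.20 and 7.40 and did not reach 2-fold against the vehicle. SERPINB4 and SERPINB10 reached the level filter in the last of the 4 arrays alone. They are thus among the 10 only through the array where they are high, which by construction raises the share of higher serpins at the filter. TIMP1, an inhibitor of metalloproteases, had 10.66, 10.49, 10.95 and 11.95, just inside the threshold at 1.00, with the IGF binding protein IGFBP6, named for that reason, just outside it at 0.99 (8.46 and 9.98). Tissue factor, F3, which starts coagulation, had 6.52, 6.02, 7.44 and 9.40 and was the 1 gene of 14 in the plasminogen and coagulation list past 2-fold.

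**Figure D3:**
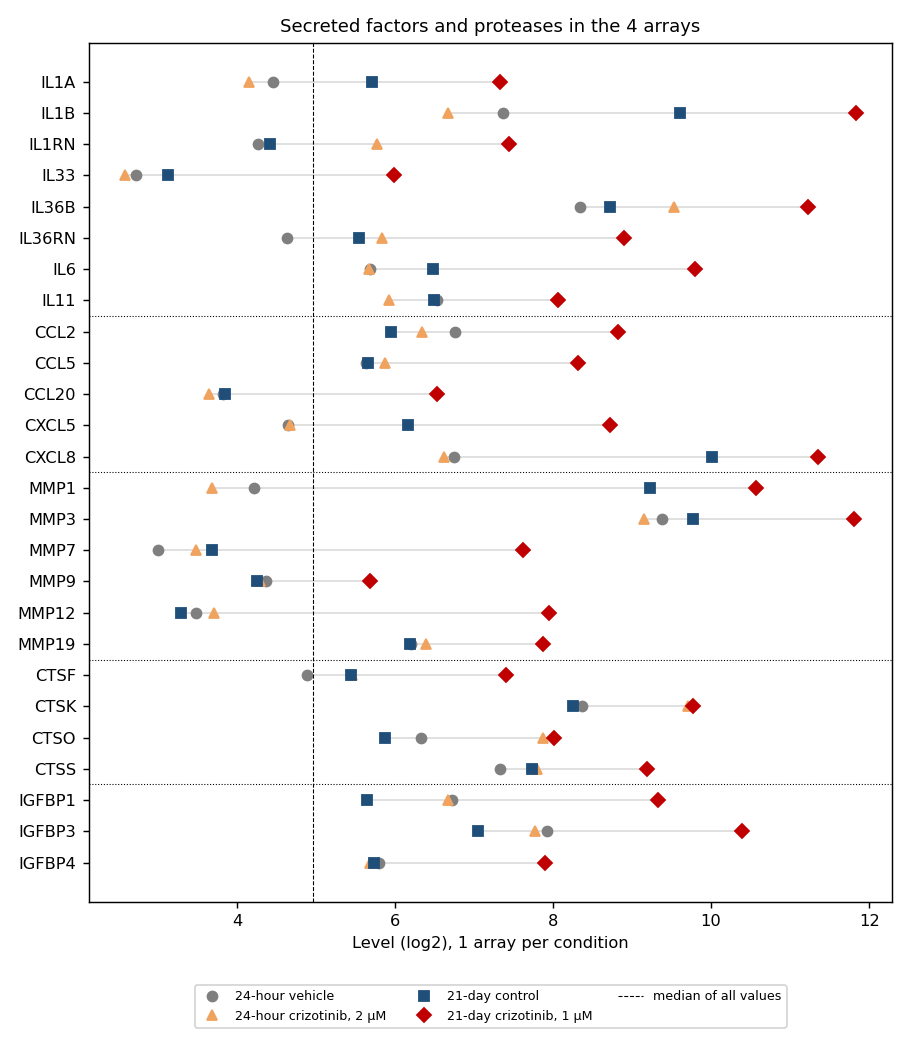
Level (log2) of 26 cytokine, chemokine, protease and IGF binding protein genes in the 4 arrays, 1 point per array, with the median of all values as a dashed line. The 21-day crizotinib array is the highest of the 4 for every gene drawn, while the 21-day control lies well right of the vehicle for MMP1, CXCL8, IL1B and CXCL5.

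Matrix proteins gave members in both directions. Of 13 small leucine-rich proteoglycans, which bind collagen fibrils, 5 passed the level filter and 3 were higher: DCN, decorin, which also binds the MET receptor, had 2.88, 3.43, 3.27 and 8.29, LUM, lumican, 5.19, 6.49, 6.13 and 8.67, and FMOD, fibromodulin, 3.73, 3.75, 3.39 and 5.02. DCN and FMOD reached the filter in the 21-day crizotinib array alone, so they are among the 5 only through the array where they are high. The collagens gave 0 higher of 43, with COL10A1 at 2.58, 2.39, 2.46 and 3.75 missing only the level filter. COL1A1, COL12A1 and COL8A1 were lower by -1.16, -1.13 (7.79 and 7.03) and -1.06 (8.50 and 7.81). COL1A1 had 9.24, 9.33, 9.54 and 8.39, and none of the 3 was 2-fold below the vehicle. The crosslinking enzymes LOX and TGM2 were higher by 1.43 (9.26 and 10.95) and 1.77, with TGM2 at 9.83, 9.59, 8.68 and 10.45, nearer to its vehicle level. Among laminins of basement membranes, LAMA4 had 5.98, 6.49, 7.44 and 8.70 and LAMB2 6.76, 7.33, 7.10 and 8.29. Of 30 genes matched as integrins 3 were higher and 0 lower: ITGAX, the alpha chain known from myeloid cells, had 5.33, 6.06, 4.58 and 7.43, ITGB8, which activates TGF-beta, 5.11, 6.30, 4.54 and 6.66, and ITGA7, a laminin receptor, 6.61, 6.68, 6.21 and 7.28. ITGA7 did not reach 2-fold against the vehicle. HAS2, which makes hyaluronan, had 5.52, 4.06, 8.64 and 9.21, with a wide step between the drug-free arrays and less than 2-fold in the 21-day pair, and VCAN, the hyaluronan-binding versican, was lower by -1.02 (9.90 and 8.69).

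Single members of several growth factor families were higher, and most members were not. Medians of the families described here were 0.03 to 0.56, and the EGF family gave 0 of 14. PDGF and VEGF ligands and receptors gave 1 of 14, with a median of -0.07. Of 12 IGF binding proteins and IGFs 3 were higher and 0 lower, each above both drug-free arrays: IGFBP1 had 6.72, 6.67, 5.64 and 9.33, IGFBP3 had 7.93, 7.77, 7.06 and 10.39, and IGFBP4 had 5.80, 5.68, 5.74 and 7.90. All 3 proteins bind IGF and keep it from its receptor. Of 35 TGF-beta, activin and BMP ligands 4 were higher: INHBA, the activin A subunit, had 4.07, 4.17, 4.15 and 6.66, BMP2 had 4.71, 5.28, 6.04 and 7.80, BMP7 was higher by 1.39 (4.25 and 5.56) and GDF15, a stress cytokine, by 1.25 (7.15 and 8.08), short of 2-fold against the vehicle. ID1 and ID3, textbook BMP targets, were lower by -1.25 (9.03 and 7.88) and -1.15 (6.54 and 6.41), and ID3 was near its vehicle level. FGF7, keratinocyte growth factor, had 3.27, 3.97, 2.93 and 6.34 and was the lone one of 27 FGF family genes past 2-fold. In the Wnt set of 44, RSPO3, an agonist, had 4.66, 6.20, 3.44 and 6.86, and the secreted Frizzled-related protein SFRP4 had 4.99, 5.18, 4.91 and 6.95. The 31 semaphorins, plexins and neuropilins, known from axon guidance, held 4 that were higher, with SEMA3A at 6.44, 5.59, 7.95 and 9.13 and SEMA3E at 4.52, 4.97, 4.18 and 5.62. PLXNA3 and PLXNB3 were higher by 1.00 (6.73 and 8.11) and 1.01 (5.45 and 6.76). Of 11 thrombospondin and CCN family genes, CCN4 and CCN3 were higher by 2.15 (5.46 and 6.78) and 1.22 (8.11 and 9.59), and both were above both drug-free arrays.

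The targets of the drug showed small differences. MET had 10.17, 9.88, 10.32 and 9.94, a difference of -0.38. ALK had 4.52, 4.60, 4.07 and 4.22, under the level filter in all 4 arrays. ROS1 had 4.65, 5.04, 6.79 and 6.71, so it was higher in both 21-day arrays than at 24 hours and did not differ by 2-fold within either pair. HGF, the ligand of MET, had 7.47, 6.80, 7.23 and 6.20, lower by -1.03. Pleiotrophin, PTN, a ligand linked to ALK, was lower by -1.32 (8.40 and 7.47), and GAS6, the ligand of AXL, was higher by 1.13 (6.74 and 7.41), and neither was 2-fold from the vehicle. AXL itself was at 10.31, 9.62, 10.16 and 9.17, short of 2-fold against the control and past 2-fold below the vehicle. Of 46 receptor tyrosine kinases 2 were past 2-fold: PDGFRA had 4.34, 4.65, 3.97 and 5.63 and EPHA4 had 5.96, 6.05, 5.07 and 6.10, close to the vehicle. TIE1 at 3.19, 3.34, 3.45 and 4.57 and NTRK3 at 4.33, 4.07, 3.08 and 4.19 missed only the level filter. Of the 23 dual-specificity phosphatases, which switch off MAP kinases, DUSP5, DUSP6 and DUSP10 were higher by 1.08 (7.31 and 7.90), 1.30 and 1.43 (7.12 and 8.54), and DUSP5 was not 2-fold above the vehicle. DUSP6 had 8.28, 7.11, 8.83 and 10.13, so it was the lowest of the 4 in the 24-hour crizotinib array and the highest in the 21-day crizotinib array.

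Transporters and metabolism held single genes rather than whole families. Of 331 solute carriers 174 passed the level filter, with 6 higher (3.45%) and 7 lower (4.02%). These shares were near the 3.98% and 4.11% over all features at the filter. SLC7A11, which imports cystine for glutathione synthesis, had 8.24, 8.57, 8.54 and 5.30, low in 1 array of the 4. SLC1A3, a glutamate transporter of astroglia, had 7.75, 7.84, 7.41 and 5.44, and was again lowest in the 21-day crizotinib array. SLC7A5, which imports large neutral amino acids, had 8.20, 7.34, 9.22 and 8.06, close to the vehicle. The mitochondrial carriers SLC25A15 and SLC25A10 were lower by -1.57 (6.11 and 4.92) and -1.36 (7.02 and 5.84), and the folate carrier SLC19A1 by -1.29 (6.52 and 5.12). The glucose transporters SLC2A1 and SLC2A3 were higher by 1.14 and 1.01 against the control, and both stood within 1 of the vehicle, at 8.50 and 6.94 there and 9.06 and 7.61 in the crizotinib array. SLC22A4, the ergothioneine transporter, had 5.68, 6.35, 5.83 and 7.54. In the serine pathway PSAT1 and PHGDH were lower by -1.45 (8.68 and 7.60) and -1.21 (9.13 and 8.40), PHGDH by less than 2-fold against the vehicle, while CTH, which makes cysteine, had 4.23, 5.47, 5.19 and 6.57. Of 23 genes of cystine uptake, glutathione and NRF2, 20 passed the level filter, with 1 higher and 3 lower. Their median was -0.23, and the 19 not past 2-fold lay between -0.985 and 0.950. Besides SLC7A11, the NRF2 targets NQO1 and AKR1B10 were lower by -1.28 (9.89 and 8.77) and -1.08 (6.96 and 5.41). The higher one was HMOX1, heme oxygenase 1, with 9.10, 10.69, 8.58 and 10.43, high in both drug arrays. CRYAB, a small heat shock protein, had 3.18, 4.91, 3.51 and 7.61, and was the 1 of 9 small heat shock proteins past 2-fold, while HSPB2 at 2.40, 2.09, 1.96 and 3.41 missed only the level filter.

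Immune recognition genes were mixed. Of 23 interferon response genes 2 were lower and 2 higher. IFI44L had 7.32, 6.79, 8.28 and 6.14 and IFI44 had 8.09, 7.61, 8.34 and 7.10, and IFI44 was not 2-fold below the vehicle. MX2 was higher by 1.76, from 3.80 in the vehicle and 4.23 in the control, and OAS2 had 4.33, 4.92, 4.55 and 5.72. GBP1, a guanylate-binding protein, had 6.80, 6.91, 7.44 and 5.57. Of 18 HLA genes HLA-B and HLA-C were higher against the control by 1.39 and 1.06 (8.34 and 8.77), but 0 were 2-fold above the vehicle: HLA-B had 9.13, 8.79, 8.44 and 9.83. The HLA median was 0.18 against the control and -0.34 against the vehicle, and these genes are close copies whose split is uncertain.

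Several large families of housekeeping or regulatory function held few or no members past 2-fold. The 43 proteasome subunits gave 0, with 39 below 0 and a median of -0.36. The 75 mitochondrial ribosomal proteins gave 0, with 63 below 0 and a median of -0.38, and the 16 tricarboxylic acid cycle genes gave 0, with 14 below 0 and a median of -0.33. Ribosome biogenesis had 1 of 28 past 2-fold, FBL, the rRNA methyltransferase fibrillarin, at -1.03 (9.10 and 8.26), and a median of -0.42. Complex I with 34 genes gave 0 and a median of -0.06. Of 42 ABC transporters, some of which export drugs, 0 were past 2-fold, with ABCG2 at 5.90, 6.20, 5.62 and 6.36, and ABCA13 at 4.48, 4.24, 3.76 and 4.88 missed only the level filter. Counts were also 0 for 29 HOX genes, for 21 BCL2 family genes and for 20 genes of the unfolded protein response, of which 12, 14 and 19 reached the level filter. Zinc finger ZNF genes, the largest family with 491 members, held 7 higher (2.77%) and 2 lower (0.791%) among 253 at the level filter. In all, 31 of the lists and families with at least 10 members had 0 past 2-fold. Some had few members at the level filter, such as 2 of 16 kallikreins. Over all features at the filter 3.98% were higher and 4.11% lower, so 0 among few such members lies near those shares.

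**Figure D4:**
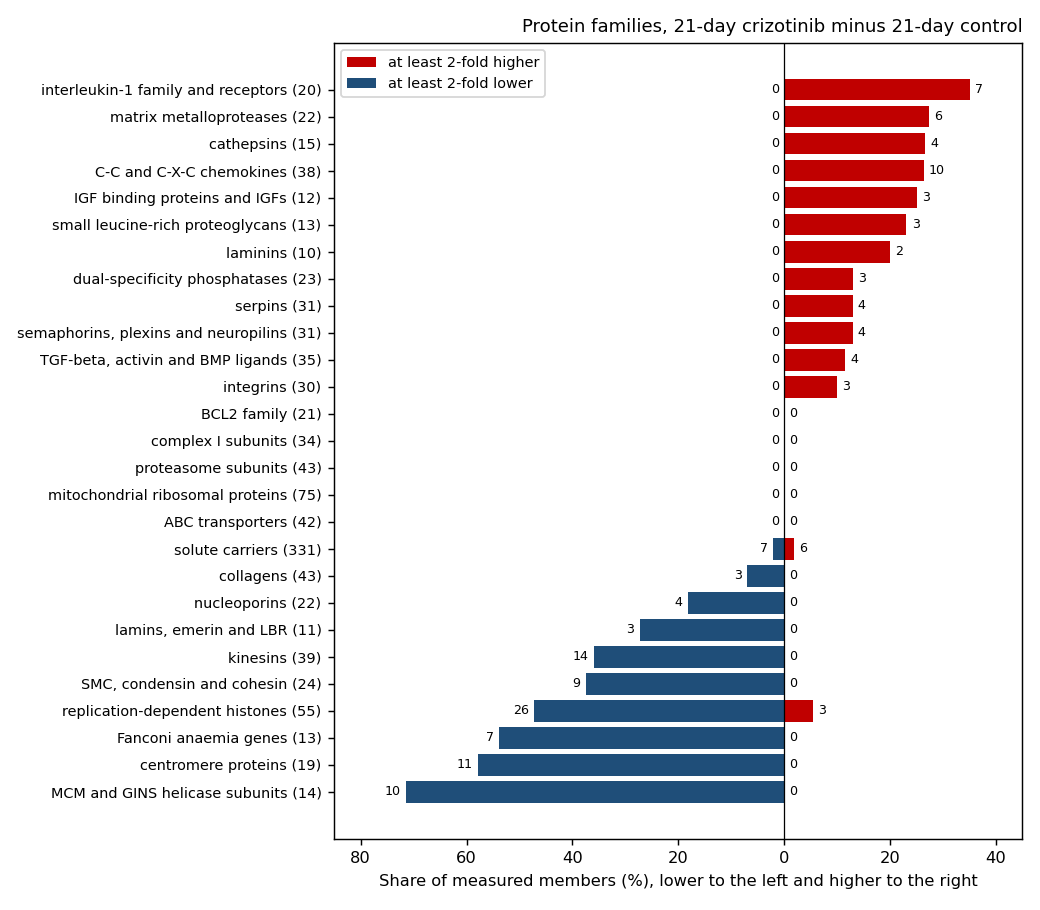
Share of measured members at least 2-fold higher (right, red) and lower (left, blue) in the 21-day crizotinib array than in the 21-day control, for 27 protein families, with counts at the bar ends and family sizes in brackets. Interleukin-1 family, metalloprotease, cathepsin and chemokine genes are on the right, MCM and GINS, centromere and Fanconi genes on the left, and 5 families have no member past 2-fold.

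Part of the differences depended on which drug-free array was used. Of the 473 higher features 142 were above the vehicle by less than 2-fold and 13 were at or below it. Of the 488 lower ones 116 were below the vehicle by less than 2-fold and 7 were at or above it, and a further 3 were 2-fold below the vehicle at levels under the filter. Among the higher genes 38 had a vehicle level at least 2-fold above the control, so the control array was the low one. TIMP3, a metalloprotease inhibitor bound to the matrix, had 8.33, 8.65, 5.33 and 8.37, so 3 arrays lay close together and the control apart. The control was also the lowest of the 4 for TSPAN7, a tetraspanin, at 6.60, 6.70, 3.87 and 5.63, for TNFRSF10C, a decoy receptor for TRAIL, at 7.45, 8.44, 4.92 and 6.86, and for CALB2, the calcium binding protein calretinin, at 6.09, 6.49, 4.44 and 6.06. The 21-day crizotinib levels of these last 3 were under the vehicle. Sterol genes were part of this group: INSIG1, which holds SREBP back, had 9.76, 11.21, 8.17 and 9.33, and STARD4, a sterol carrier, 8.17, 9.33, 6.24 and 7.43. The cholesterol synthesis and uptake list of 20 had a median of 0.26 against the control and of -0.73 against the vehicle. Among hypoxia targets 6 of 19 were higher against the control and 2 of these also against the vehicle: BNIP3 had 9.55, 9.27, 8.39 and 9.93, whereas ADM had 6.69, 6.20, 7.06 and 8.90.

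The lower genes held the mirror case for 20 features, in which the control was at least 2-fold above the vehicle. TRIML2 had 4.41, 4.78, 7.19 and 4.80, and AMIGO2, a neuronal adhesion protein, 4.84, 3.97, 6.51 and 4.75. CGB8, a chorionic gonadotropin beta gene with near-identical copies, had 7.27, 7.06, 8.97 and 7.12. In these 3 the crizotinib array lay less than 2-fold from the vehicle and the 21-day control stood alone. CDK15 had 2.90, 5.01, 5.56 and 3.64 and TMEM156 4.70, 2.90, 6.99 and 5.85, so both were above the vehicle in the crizotinib array. A further 32 of the higher features had a control already at least 2-fold above the vehicle, MMP1, CXCL8 and IL1B among them, and there the crizotinib array was the farther of the 21-day pair from the vehicle.

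**Figure D5:**
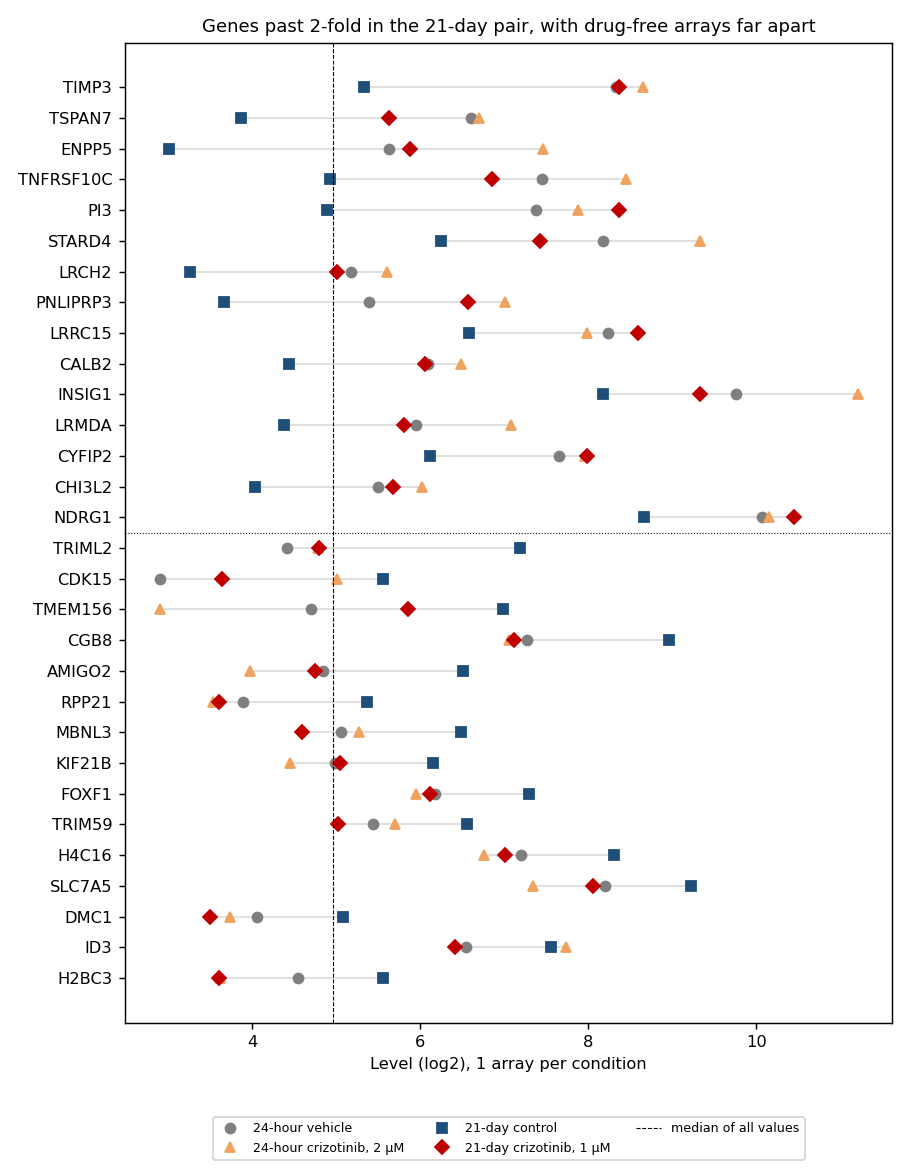
Level (log2) in the 4 arrays of the 15 higher (above the dotted line) and 15 lower (below it) protein-coding genes past 2-fold in the 21-day pair whose drug-free arrays were farthest apart. In the upper block the 21-day control is the leftmost point for every gene, and in the lower block it is the rightmost for all but ID3, where the 24-hour crizotinib array is.

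The arrays carried the marks of U87 cells. Most markers of epithelia, leukocytes, endothelium and neurons were under the level filter in the 21-day pair, whereas 10 of 12 fibroblast markers passed it. The filter takes the higher array of the pair. DCN and PDGFRA reached it in the 21-day crizotinib array alone, so the 10 do not describe all arrays. VIM was 12.18 in the 21-day control and 12.06 in the crizotinib array, and CD44 was 11.26, 10.66, 11.08 and 11.21. CDKN2A, CDKN2B and MTAP, which lie in the deletion known in this line, were under the level filter in all 4 arrays, at 3.67, 3.73 and 3.00 in the crizotinib array. Of the glial markers, GFAP, S100B, AQP4 and OLIG2 were under it too, with GFAP at 4.91, 4.50, 4.80 and 4.74. The astroglial transporter SLC1A3, described among the solute carriers, went the other way and passed the filter in all 4 arrays. Its level under 21-day crizotinib was past 2-fold below that of either drug-free culture. Of 12 fibroblast markers 4 were higher (DCN, LUM, PDGFRA and FAP) and 1 lower (COL1A1), the summed level was 72.0 in the control and 84.9 in the crizotinib array against 71.3 in the vehicle, and 10 of 12 were above the control. Their median level was 5.53 in the control and 7.26 in the crizotinib array. COL3A1 and POSTN were the 2 under the level filter. Of 14 epithelial markers 1 was higher, CLDN4 at 4.01, 4.24, 4.22 and 5.65, and EPCAM, CDH1, KRT5 and KRT14 were under the filter in the 21-day arrays, with a summed level of 54.9 in the control and 55.3 in the crizotinib array. EHF, a transcription factor known from epithelia, nevertheless had 4.10, 4.26, 5.23 and 8.74, and RPTN, a cornified envelope protein, 3.44, 3.66, 3.33 and 6.39. Of 13 leukocyte markers 1 was higher, ITGAX, while PTPRC was at 1.94, 1.81, 2.09 and 1.98, and the summed level was 52.1 and 56.3. Endothelial and neuron markers had 0 of 10 and 0 of 11 past 2-fold, though TIE1, an endothelial marker, missed only the level filter, with sums of 45.4 and 46.9, and of 46.9 and 49.2. The part of the fibroblast markers in the matrix and growth factor results was not tested.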

How the data were processed

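RNA of 4 U87 cultures, 1 per condition, was measured on 1 array each. The authors deposited log2 values, made with RMA in the package affy 1.36.1 under R 2.15.1, per the submitters' processing notes. RMA corrects the background, equalises the distributions of the arrays and summarises probes, and it compresses low values and gives no detection call. The genome build is not given in the sources used here. Array medians were 4.92 to 4.98. The number of arrays limits the precision, and no read depth applies.

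Features were named from the platform annotation and matched to RefSeq by gene identifier: 22458 had 1 symbol and 1328 had none. Differences were formed in Python 3.11.15 with pandas 2.3.3, with a 2-fold threshold and a level filter at the median of all values, 4.96. The counting rule was run on simulated arrays with planted differences past the threshold and little noise. That run checks the code only and says nothing of the spread between cultures. Members of 49 gene lists and 93 families were counted, and the members and lists were chosen with earlier results of these data known. Genes were named by rule: the 30 highest and 30 lowest protein-coding genes, list and family members past 2-fold, the 3 highest and 3 lowest of each list, the 15 higher and 15 lower genes with the widest gap between the drug-free arrays, the drug targets, the markers, and the genes whose promoters are printed. Any other gene is said to be named after its values were seen. Alternatives were other level filters, fold thresholds and scalings, and the 24-hour vehicle as the control.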

Additional observations from a re-analysis of the deposited data

Results flagged for a closer look

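In 7 named genes the 21-day difference and the 24-hour difference (crizotinib minus vehicle) were both at least 2-fold and of opposite sign. These differences of differences were not tested, since each side has 1 array, and dose and time both differ between the pairs. Over all features 9 were opposite and 208 were past 2-fold in the same direction.

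SERPIND1, heparin cofactor II, was 6.55 and 5.11 at 24 hours without and with the drug and 6.20 and 7.40 at 21 days, so the 21-day difference exceeded the 24-hour one by 2.63. DUSP6, which switches off ERK, was 8.28 and 7.11 and then 8.83 and 10.13, a gap of 2.46. The other 5 were higher at 24 hours and lower at 21 days. The gap was -2.15 for ARHGAP28, a RhoGAP, with 5.74 and 6.88 and then 4.98 and 3.97. It was -2.25 for AKR1B10, an aldo-keto reductase, with 6.96 and 8.14 and then 6.49 and 5.41. It was -2.33 for ID3, an inhibitor of differentiation factors, with 6.54 and 7.73 and then 7.56 and 6.41. ACAT2, an acetyl-CoA acetyltransferase of sterol synthesis, gave -2.87, with 6.92 and 8.63 and then 6.34 and 5.19. CDK15 gave -4.03, with 2.90 and 5.01 and then 5.56 and 3.64, and its vehicle level lay under the level filter.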

How the results depend on the processing

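The fold threshold moved the counts most. At 1.5-fold 1279 features were higher and 1339 lower, with 870 above and 881 below both drug-free arrays. At 4-fold these were 77, 111, 57 and 91. Other level filters and scalings kept all 4 counts within 1.5 times. Against the 24-hour vehicle 672 were higher and 596 lower. Among the 407 named genes past 2-fold, 275 kept the sign of their difference there and moved by less than 0.5. A further 120 kept the sign and moved by at least 0.5. Of 407 named genes past 2-fold, 12 turned sign against the vehicle: ALDOC (-0.19), CALB2 (-0.030), INSIG1 (-0.43), LRCH2 (-0.17), LRMDA (-0.14), STARD4 (-0.74), TNFRSF10C (-0.59) and TSPAN7 (-0.97) were higher against the 21-day control, and CDK15 (0.74), KIF21B (0.061), TMEM156 (1.15) and TRIML2 (0.38) lower. TMEM156 was at 0.0078 against the mean of both drug-free arrays. The drug-free arrays of these 12 differ, which by construction sets the change. Of 140 list medians 38 had the opposite sign against the vehicle, and 4 moved by over 0.5. Over members at the level filter only, 18 turned sign and 10 moved by over 0.5. The metalloprotease median went from 0.35 to 1.34 and the kinesin median from 0.02 to -0.19. The filter takes the higher array of the pair, so it keeps genes high in 1 array only, such as MMP12 and MMP7. It drops genes low in both, and by construction this favours members that differ. Quantile normalization turned 9 and moved 0 by over 0.5. Quantile normalization moved none of the 407 genes by over 0.5. No paired analysis was possible because each condition has 1 array. Spread between cultures is unmeasured.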

Other observations

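Small nucleolar RNA genes, looked at after their values were seen, held members far apart. Of 18 measured SNORD116 genes, copies of an imprinted cluster on chromosome 15, 5 passed the level filter and all 5 were above both drug-free arrays, with a family median of 1.19 against the 21-day control and 1.58 against the vehicle. SNORD116-24 had 5.61, 6.78, 7.18 and 9.24, in the order 24-hour vehicle, 24-hour crizotinib, 21-day control and 21-day crizotinib, and SNORD116-15 had 7.78, 8.57, 8.57 and 10.40. The copies are near-identical, so their split is uncertain. Of 31 SNORD114 genes 2 were higher, with SNORD114-1 at 4.16, 3.48, 4.53 and 7.21. The 25 SNORD115 and 9 SNORD113 genes had 0 at the level filter. The remaining 230 snoRNA genes had 10 higher and 11 lower and a median of -0.09 against the control and 0.24 against the vehicle. Of these, 10 were above and 1 was below both drug-free arrays.

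Several p53 and FOXO target genes were also higher. Of 22 p53 targets 5 were higher, 3 of them above both drug-free arrays, among them TP53INP1 at 5.70, 6.99, 5.13 and 7.17 and PHLDA3 at 5.81, 5.92, 5.48 and 7.02. Of 20 FOXO targets 6 were higher and 4 were above both, among them CITED2 at 6.87, 7.39, 6.79 and 8.60 and PINK1, the mitophagy kinase, higher by 1.20 against the control, from 7.87 in the vehicle. In the clock list RORA was higher by 1.39 against the control and short of 2-fold against the vehicle, with 6.53, 6.85, 5.86 and 7.25. PER3 was lower by -1.02 with 7.10, 7.83, 6.65 and 5.63.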
